A study of Mus musculus with 30 samples.

Results

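Interferon-stimulated genes were followed across sorted naive B cells, germinal centre (GC) cells and plasma cells (PC) of worm-infected mice. The list held 44 genes, taken by gene symbol, and 40 of them had a probe set annotated with that symbol alone, out of 19937 genes measured in the same way. Irf1 had 2 such probe sets and the other genes 1 each, which gave 41 probe sets of 34760 on the array. Isg15, Igtp and Gbp2 lay only on probe sets that share several symbols, Ifi44 was not matched, and these 4 genes were not analysed here.

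All mice were CeGFP BALB/c animals, which carry a knock-in of an IRES-GFP cassette behind the membrane IgE gene, and all were infected with the nematode Nippostrongylus brasiliensis. Cells of the mesenteric lymph nodes were taken at day 10 of infection, and each array held amplified RNA from a pool of 3 mice, with a separate sort for each pool. GFP marks IgE cells and also IgG1 cells that rearranged to the epsilon gene on the chromosome that makes no antibody. The first experiment had 18 arrays in 6 groups, namely IgE PC (4), GFP+ IgG1 PC (2), IgE GC (3), GFP+ IgG1 GC (3), GFP- IgG1 GC (3) and naive B cells (3). GC cells were gated as B220+ CD95+ CD138-, and PC as CD95+ CD138+. The naive gate took B220+ cells that lacked CD95, CD138, IgG1 and IgE at the surface, and these cells came from infected animals too. The second experiment had 12 arrays of IgG1 GC cells in 4 groups of 3, namely dark zone (DZ) GFP+, DZ GFP-, light zone (LZ) GFP+ and LZ GFP-, with DZ cells gated as high in CXCR4 and low in CD86 and LZ cells the reverse. The question of the study was how IgE cells differ from IgG1 cells and how the zones differ, and no group was treated with interferon.

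Type I interferons bind the receptor pair IFNAR1 and IFNAR2, whose kinases JAK1 and TYK2 phosphorylate STAT proteins. STAT2 and IRF9 are parts of the complex ISGF3, which binds the interferon-stimulated response element (ISRE). Many of these genes also have a baseline level without interferon, and several are used by B cells in antigen presentation or RNA sensing. BLIMP1, the factor encoded by Prdm1 that drives plasma cell differentiation, is known to bind a sequence that overlaps the ISRE.

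Promoters are shown for genes that the results turn on. RefSeq promoter windows (GRCm38.p6, 250 bases before to 50 after a start) were in the table for 35 of the 44 genes. An ISRE-type motif, 2 copies of GAAA on 1 strand with any 2 bases between them, searched on both strands, was in 16 of these 35 (45.7%) and in 3.99% of all 27025 genes with a window. The narrower form with GT as the bases between the copies, a special case of the first motif that resembles the BLIMP1 site, was in 3 of the 35 (Ifit1, Ifit3 and Gbp2) and in 0.303% of all genes. TTCNNNGAA, the palindrome that STAT dimers bind, searched on both strands, was in 11 of the 35 (31.4%) and in 9.55% of all genes. The first 5 windows belong to genes that were higher in plasma cells of both isotypes, and the next 3 to genes too dim for the main fit. Each is written 5′ to 3′ in the direction of the gene, with 1 motif match in capitals. The printed stretches of Irgm1 and Bst2 each hold a second match that overlaps the first and is not fully in capitals.
Ddx58, chr4:40239804-40239833, minus strand: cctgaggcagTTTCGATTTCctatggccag
Irgm1, chr11:48871431-48871460, minus strand: cctgtttcaaGAAATAGAAAccgaaactga
Bst2, chr8:71537583-71537612, minus strand: ggcattccagGAAAATGAAActgaaaggct
Eif2ak2, chr17:78882535-78882564, minus strand: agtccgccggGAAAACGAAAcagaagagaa
Trim30a, chr7:104465210-104465239, minus strand: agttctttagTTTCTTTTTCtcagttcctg
Ifit1, chr19:34640775-34640804, plus strand: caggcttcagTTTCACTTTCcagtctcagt
Ifit3, chr19:34583363-34583392, plus strand: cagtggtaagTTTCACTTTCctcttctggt
Rsad2, chr12:26456553-26456582, minus strand: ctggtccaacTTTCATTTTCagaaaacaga
Isg20, whose level differed most between plasma cells and GC cells, had no ISRE-type match in its window, but held the STAT palindrome, as did Psmb8. Bst2 and Eif2ak2 held that palindrome beside their ISRE-type matches.
Isg20, chr7:78913341-78913370, plus strand: ctggggagggTTCTTGGAAtttttcctttt
Psmb8, chr17:34198088-34198117, plus strand: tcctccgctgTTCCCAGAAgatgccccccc
A match is a description of letters, not of binding.

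Values are log2 signals on a scale on which 1 unit is a doubling. Array medians ran from 5.28 to 5.47. Correlations within a group were lowest among the naive arrays (0.891 at the lowest), and naive replicate 1 and GFP+ IgG1 GC replicate 3 correlated less with their group than its other arrays did. Marker genes followed the labels. The mean of 6 plasma cell markers was 10.38 to 10.64 in IgE PC and 9.71 to 10.14 in IgG1 PC, against 5.79 to 7.64 on the GC and naive arrays of the first experiment. The mean of 5 GC markers was 10.12 to 10.42 in GC cells and 5.99 to 6.08 in naive cells.

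Several classical antiviral genes were dim in every population. Testing in the main fit required a level above the array's median on a minimum of 2 arrays (first experiment) or 3 arrays (second experiment). Of the 40 genes, 29 and 28 reached it. The 11 that reached it in neither were Ifit1, Ifit2 and Ifit3, which bind foreign RNA, the RNA sensor gene Ifih1, the oligoadenylate synthetase genes Oas3 and Oasl2, the GTPase genes Mx1 and Mx2, and Rsad2, Cmpk2 and Rtp4. Mx1 had 3.21 to 3.28 in IgE PC, 2.89 to 2.99 in IgE GC and 2.94 to 3.88 in naive cells, and Rsad2 had 3.98 to 4.35, 3.92 to 4.18 and 4.08 to 4.21 in the same groups. Both stayed below the array medians on all 30 arrays, as 8 of the 40 genes did, while 19 of the 40 exceeded the median on all 30. The dim genes have no test in the main fit. In a fit with no filter, Mx2 was higher in IgG1 PC than in GFP+ IgG1 GC (1.148, adjusted p = 0.0323, limma). Ifit3 was lower in IgE PC than in naive cells in that fit (-0.495, adjusted p = 0.0383, limma).

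**Figure D1:**
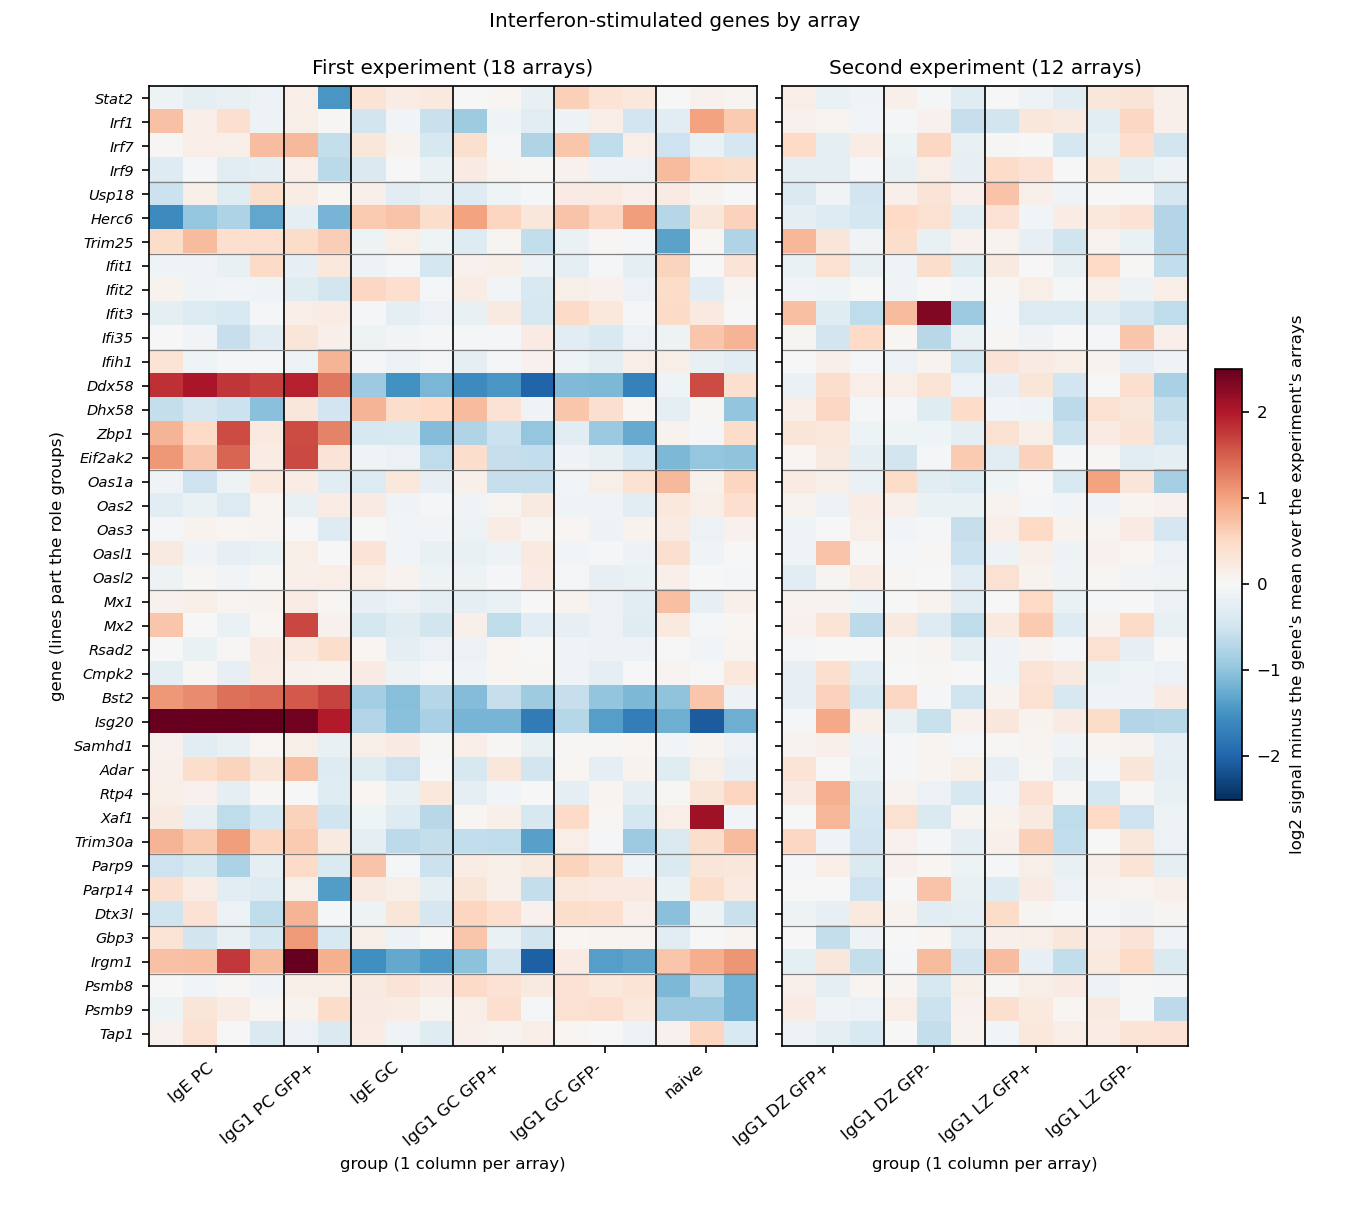
Level of the 40 measured interferon-stimulated genes on each array (columns, grouped by population) as log2 signal minus the gene's mean over the arrays of its experiment, on a colour scale that stops at 2.5 in either direction. Isg20, Ddx58, Bst2 and Irgm1 are above their means (red) on the plasma cell arrays of both isotypes, and Psmb8 and Psmb9 are below theirs (blue) on the naive arrays.

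Plasma cells differed from GC cells in a small group of these genes rather than in the list as a whole. Of 29 tested genes, 7 were higher and 2 lower in IgE PC than in IgE GC (limma, adjusted p under 0.05 over all 12098 genes tested), beside 23.6% of all genes called in either direction. In GFP+ IgG1 PC against GFP+ IgG1 GC, 7 were higher and 1 lower, beside 21.4% of all genes. The same 7 genes were higher in both isotypes, in comparisons that share no array. The share of all genes higher in both was not counted, so this overlap is not shown to be particular to the list. Shares of 31% and 27.6% of the tested list were thus called, not far above the background, and the median difference of the list was -0.018 and 0.174, against -0.025 and -0.013 over all genes tested. Over all genes, higher calls made up 10.2% and 8.32% and lower calls 13.4% and 13.1%. In sorted bulk samples, more RNA of a gene per cell and more cells that express it cannot be told apart.

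Isg20, which encodes an exonuclease that degrades viral RNA, differed most. It had 10.79, 10.54, 10.88 and 10.64 in IgE PC and 10.47 and 10.04 in IgG1 PC. GC arrays had 7.34, 7.01 and 7.25 in IgE cells, 6.89, 6.89 and 6.31 in GFP+ IgG1 cells and 7.34, 6.68 and 6.32 in GFP- IgG1 cells, and the naive arrays had 6.84, 5.98 and 6.85. All 6 plasma cell arrays lay above all 12 others. The difference between PC and GC was 3.52 ± 0.25 (SE) in IgE cells (adjusted p = 2.73e-08, limma) and 3.55 ± 0.30 in IgG1 cells (adjusted p = 2.47e-07), or 11.4-fold and 11.7-fold.

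Among the sensors of foreign nucleic acid, Ddx58, which encodes the RNA sensor RIG-I, had 8.64, 8.87, 8.60 and 8.53 in IgE PC, against 5.92, 5.304 and 5.67 in IgE GC. It had 8.75 and 8.14 in IgG1 PC, against 5.23, 5.37 and 4.81 in GFP+ IgG1 GC. The groups did not overlap in either isotype. The differences were 3.03 ± 0.31 (SE, adjusted p = 1.56e-06, limma) and 3.31 ± 0.38 (adjusted p = 5.85e-06). Zbp1, a sensor of left-handed nucleic acid, had 8.30, 7.94, 9.07 and 7.70 in IgE PC, against 7.05, 7.07 and 6.37 in IgE GC, and 9.09 and 8.68 in IgG1 PC, against 6.69, 6.91 and 6.47 in GFP+ IgG1 GC. Its differences were 1.42 and 2.19 (adjusted p = 0.00192 and 0.000253).

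Eif2ak2, which encodes the kinase PKR that halts translation on double-stranded RNA, had 5.85, 5.44, 6.23 and 4.96 in IgE PC, against 4.66, 4.64 and 4.15 in IgE GC. It had 6.44 and 5.10 in IgG1 PC, against 5.22, 4.21 and 4.17 in GFP+ IgG1 GC, where the groups overlapped. It exceeded the array median on only 4 arrays, all of plasma cells, so a gene that passed the filter in this way had to be higher there, and its differences of 1.14 and 1.23 are left out of what the count can show, which leaves 6 genes higher in both isotypes. In IgG1 cells the call ended under 5 alternatives, furthest without PC replicate 1 (0.565, adjusted p = 0.433 by limma). Dhx58, which encodes the RIG-I-like protein LGP2, ran the other way, with 4.91, 5.09, 4.95 and 4.46 in IgE PC, against 6.35, 5.94 and 5.99 in IgE GC (-1.24, adjusted p = 0.00271). In IgG1 cells Dhx58 differed by -0.45 (95% interval -1.14 to 0.25, adjusted p = 0.376), and the difference between the isotypes in this change did not pass the test (adjusted p = 0.799).

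Among the other antiviral effectors, Bst2, which encodes tetherin, a membrane protein that holds budding virus at the cell surface, had 8.06, 8.17, 8.35 and 8.39 in IgE PC and 6.13, 5.91 and 6.26 in IgE GC. It had 8.52 and 8.67 in IgG1 PC and 5.90, 6.41 and 6.08 in GFP+ IgG1 GC. Differences were 2.14 ± 0.28 and 2.46 ± 0.33 (SE, adjusted p = 2e-05 and 3.9e-05). Trim30a, a TRIM family gene of the mouse, had 8.68, 8.49, 8.87 and 8.37 in IgE PC and 7.59, 7.17 and 7.24 in IgE GC, and 8.49 and 8.06 in IgG1 PC and 7.22, 7.19 and 6.47 in GFP+ IgG1 GC, with differences of 1.27 in IgE and 1.32 in IgG1 cells (adjusted p = 0.00352 and 0.0111). The IgG1 call of Trim30a ended without PC replicate 1 (adjusted p = 0.108), and its near-identical neighbours make its signal uncertain. Samhd1, which encodes a nucleotide hydrolase, and Adar, which encodes an RNA-editing enzyme, were not called in the main fit. Their differences were -0.20 and 0.62 in IgE and -0.018 and 0.41 in IgG1 cells. Adar was called higher in IgE PC with centred arrays (0.711, adjusted p = 0.026, limma). It was also called there with a further quantile normalization (adjusted p = 0.0287) and with the compared groups alone (adjusted p = 0.0244).

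Irgm1, which encodes a GTPase of defence against intracellular microbes, was higher in plasma cells with a wide spread. It had 7.15, 7.16, 8.18 and 7.20 in IgE PC, against 4.88, 5.12 and 4.97 in IgE GC, and 9.03 and 7.30 in IgG1 PC, against 5.37, 5.93 and 4.37 in GFP+ IgG1 GC. The differences were 2.43 ± 0.45 and 2.94 ± 0.53 (SE, adjusted p = 0.000547 and 0.000625). Gbp3, the other interferon-inducible GTPase gene tested, was not called (-0.19 and 0.32).

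In the ISG15 system, which couples the ubiquitin-like protein ISG15 to other proteins, Herc6 was lower in plasma cells. Herc6 encodes the main ISG15 ligase of the mouse, and had 4.25, 4.88, 5.06 and 4.55 in IgE PC, against 6.50, 6.55 and 6.27 in IgE GC. It had 5.62 and 4.67 in IgG1 PC, against 6.85, 6.37 and 6.11 in GFP+ IgG1 GC, so neither isotype's groups overlapped. The differences were -1.76 ± 0.30 (SE, adjusted p = 0.000302) and -1.30 ± 0.36 (adjusted p = 0.015, which became 0.224 without PC replicate 2; the call also ended without GC replicate 1). Usp18, which encodes the protease that removes ISG15, was not called (0.045 and 0.27). Trim25, the other tested gene of this system, went the other way from Herc6 and was not called in the main fit (0.55 and 0.827). With centred arrays it was called higher in PC of both isotypes (0.639 and 1.016, adjusted p = 0.0458 and 0.00996, limma). Some other alternatives called Trim25 too.

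In the main fit, none of the 4 tested signalling factors, Stat2, Irf1, Irf7 and Irf9, was called between PC and GC in either isotype. Differences ran from -0.43 for Stat2 to 0.66 for Irf1 in IgE cells and from -0.60 for Stat2 to 0.51 for Irf1 in IgG1 cells. With the compared groups alone, Stat2 was called lower in IgE PC (-0.432, adjusted p = 0.0255, limma). Without IgG1 PC replicate 1, which left 1 array in that group, the IgG1 differences were -1.41 for Stat2 and -0.765 for Irf9. The IgG1 values of these genes thus depend on 1 array. The 3 OAS genes tested, the PARP and DTX3L genes and the 3 genes of peptide supply (Psmb8, Psmb9 and Tap1) also had no main-fit call. Their differences ran from -0.521 to 0.113 in IgE cells and from -0.564 to 0.283 in IgG1 cells. Parp14 had -1.34 in IgG1 cells without IgG1 PC replicate 1. Of the 29 genes, 22 had the same sign in both isotypes. The like share over all genes was not counted, so this number describes the list alone. The mean of 8 T cell markers was 6.03 to 6.21 in IgE PC and 5.20 to 5.74 in IgE GC, and 6.06 to 6.65 in IgG1 PC and 5.08 to 5.31 in GFP+ IgG1 GC. Among these markers Cd28 and Thy1 were higher in IgE PC (4.31 and 2.05), while the T cell receptor genes Cd3d (-0.71) and Cd3e (-0.53) were not called. Their part in these results was not tested.

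**Figure D2:**
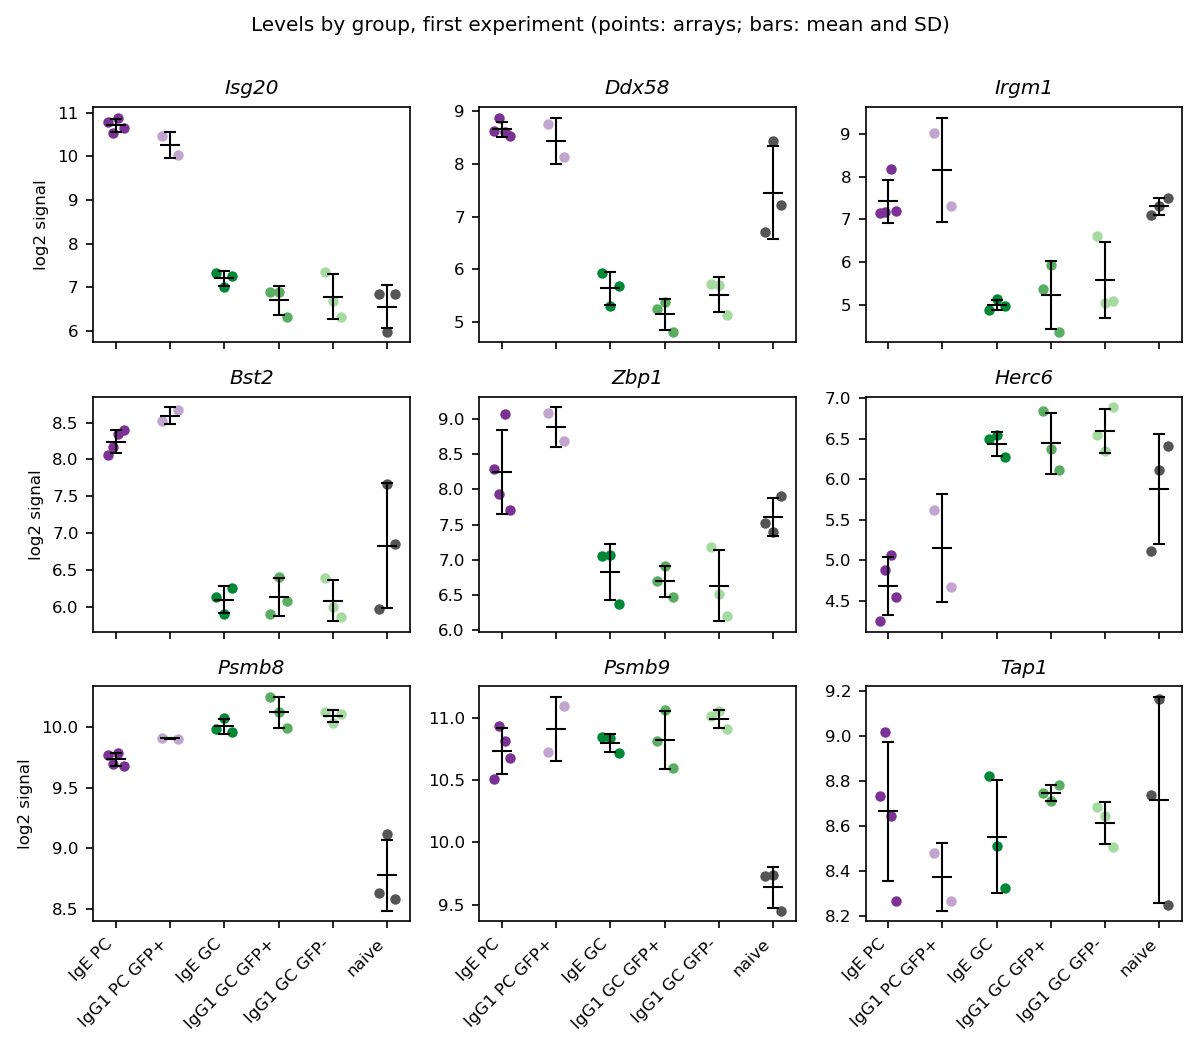
Log2 signal (vertical axes, each with its own range) of 9 interferon-stimulated genes in the 6 groups of the first experiment, with 1 point per array and bars for the mean and SD. All plasma cell arrays lie above all others for Isg20 and Bst2 and below all GC arrays for Herc6, and the naive arrays lie lowest for Psmb8 and Psmb9.

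Of the 6 genes higher in both isotypes when Eif2ak2 is left out, 5 had a promoter window and 4 of these (Bst2, Ddx58, Irgm1 and Trim30a) held the ISRE-type motif. It was also in Eif2ak2, in 3 of 17 other tested genes of the first experiment (Gbp3, Oas1a and Stat2). Of 8 genes too dim for the main fit, 5 held it. These counts describe the list and carry no test.

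Against naive cells, plasma cells were higher in Isg20, Bst2, Trim25, Psmb8 and Psmb9 in both isotypes. In IgE PC 7 genes were higher and 4 lower, beside 37% of all genes (23% higher and 14.1% lower). In IgG1 PC 8 were higher and 1 lower, beside 29.3% (17.1% higher and 12.2% lower). Both counts of higher genes include Eif2ak2, which passed the filter through plasma cell arrays alone, and are 6 and 7 without it. When each array was centred on its median the IgE split became 7 and 7, and with a further quantile normalization the IgG1 split became 8 and 3. Both comparisons share the naive arrays, as do those of GC cells below. Isg20 differed by 4.16 ± 0.25 in IgE and 3.70 ± 0.30 in IgG1 plasma cells (SE, adjusted p = 1.56e-09 and 8.54e-08, limma).

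Trim25, which encodes a ligase that activates RIG-I, had 9.32, 9.67, 9.30 and 9.30 in IgE PC and 9.32 and 9.49 in IgG1 PC, against 7.53, 8.93 and 8.12 in naive cells. All plasma cell arrays lay above the naive ones, and the differences were 1.204 and 1.22 (adjusted p = 0.000999 and 0.00477). Bst2 had 5.97, 7.67 and 6.86 on the naive arrays, below every plasma cell array (1.41 and 1.76, adjusted p = 0.000731 and 0.000638). Ddx58 was called against naive cells in IgE PC (1.201, adjusted p = 0.00612) and not in IgG1 PC (0.99, adjusted p = 0.0583), and naive replicate 2, at 8.44, reached the plasma cell range. Zbp1 was called in IgG1 PC (1.28, adjusted p = 0.0125) and had 0.65 in IgE PC.

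Irf9, the DNA-binding part of ISGF3, was lower in plasma cells than in naive cells, with 6.49, 6.75, 6.54 and 6.57 in IgE PC and 6.98 and 6.13 in IgG1 PC, against 7.599, 7.30 and 7.24 in naive cells. Its differences were -0.79 and -0.83 (adjusted p = 0.00213 and 0.00724, limma). The second call ended without IgG1 PC replicate 2 (adjusted p = 0.216 by limma) and in a fit of the compared groups alone. In IgE PC, Herc6 (-1.20), Ifi35 (-0.70) and Oas2 (-0.45) were lower too. Irgm1, high in both plasma cells and naive cells, did not pass the test (0.12 in IgE PC, 95% interval -0.82 to 1.06).

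GC cells differed from naive cells in all 3 GC groups by higher Psmb8 and Psmb9 and lower Ddx58 and Irgm1. In IgE GC 3 genes were higher and 3 lower, where 26.7% of all genes were called (19.3% higher and 7.4% lower). In GFP+ IgG1 GC 3 were higher and 6 lower, beside 23.3% of all genes (16.8% and 6.43%). In GFP- IgG1 GC 3 were higher and 5 lower, beside 29.8% (20.5% and 9.35%). These counts moved with the scaling, and the median of the tested genes was itself higher in GC than in naive cells by 0.26, 0.23 and 0.29. With each array centred on its median, the higher and lower counts were 3 and 11, 2 and 9, and 2 and 9, with a further quantile normalization 3 and 9, 2 and 9, and 2 and 8, and in IgE GC 10 genes were called without naive replicate 1. The 3 comparisons share the naive arrays, so their likeness is not repeated evidence.

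The immunoproteasome genes were higher in GC cells. Psmb8, a catalytic subunit that trims peptides for MHC class I, had 9.99, 10.08 and 9.96 in IgE GC, 10.25, 10.13 and 9.997 in GFP+ IgG1 GC and 10.13, 10.04 and 10.11 in GFP- IgG1 GC, against 8.63, 9.12 and 8.59 in naive cells. Psmb9, its partner subunit, had 10.84, 10.83 and 10.71 in IgE GC, 10.81, 11.06 and 10.59 in GFP+ IgG1 GC and 11.01, 11.05 and 10.91 in GFP- IgG1 GC, against 9.73, 9.74 and 9.45 in naive cells. Every GC array lay above every naive array for both genes. Psmb8 differed by 1.23, 1.35 and 1.31 (SE 0.15 each, adjusted p at most 1.15e-05, limma) and Psmb9 by 1.16, 1.18 and 1.35 (SE 0.17 each, adjusted p at most 6.36e-05). With centred arrays these became 0.97, 1.12 and 1.02 for Psmb8 and 0.90, 0.96 and 1.06 for Psmb9. Psmb8 had 9.77, 9.70, 9.79 and 9.69 in IgE PC and 9.91 and 9.90 in IgG1 PC, also above every naive array. Tap1, a subunit of the transporter that carries those peptides, was not called (-0.17, 0.032 and -0.11), and its naive arrays spread over 8.74, 9.17 and 8.25.

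Ddx58 and Irgm1, both high in plasma cells, were lower in GC than in naive cells. Ddx58 had 6.70, 8.44 and 7.23 on the naive arrays, above all 9 GC arrays, whose highest value was 5.92. Its differences were -1.83, -2.32 and -1.94 (SE 0.34 each, adjusted p at most 0.000657, limma). Irgm1 had 7.10, 7.31 and 7.50 on the naive arrays and 6.62, 5.03 and 5.09 in GFP- IgG1 GC, the GC group with the highest array. Its differences were -2.31, -2.08 and -1.73 (SE 0.48 each, adjusted p = 0.00164, 0.00415 and 0.0128). The last call ended without GFP- IgG1 GC replicate 2 or 3 (adjusted p up to 0.0625). The same GC arrays are used here and in the plasma cell comparison, so each GC value enters both.

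Further genes were called in 1 or more of the 3 GC comparisons and lost the call under at least 1 alternative, Irf9 in IgE GC excepted (-0.75, adjusted p = 0.00796). Zbp1 had -0.92 in GFP+ and -0.97 in GFP- IgG1 GC, with adjusted p = 0.0497 and 0.0318 at the edge of the threshold. Dtx3l, whose product pairs with PARP9, was higher in both IgG1 GC groups (0.94 and 0.91). Dhx58 was higher in IgE GC (0.99). Irf1 (-0.88), Oas1a (-0.82) and Trim30a (-1.16) were lower in GFP+ IgG1 GC, and Ifi35 (-0.73) was lower in GFP- IgG1 GC.

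Markers of plasmacytoid dendritic cells, strong makers of interferon, moved with the naive arrays. Their mean over 4 matched genes of 5 was 5.74 to 6.04 on the GC arrays of the first experiment and 6.0 to 7.10 on the naive arrays. All 4 exceeded the median on a naive array, while in each GC group of that experiment 2 did so on no array. In the second experiment the mean was 6.22 to 6.32 in LZ GFP+ and 5.87 to 6.37 in LZ GFP- cells. It was 5.66 to 6.17 in DZ GFP+ and 5.77 to 5.85 in DZ GFP- cells. All 4 exceeded the median on an LZ GFP- array too. Siglech, a lectin gene of plasmacytoid dendritic cells, had 4.97, 4.92 and 5.04 in IgE GC, against 6.11, 7.81 and 6.19 in naive cells. Of the 3 tested markers of this list 2, Siglech and Cox6a2, were lower in IgE GC and 1, Pacsin1, was higher (1.04). Of all genes, 7.4% were lower and 19.3% higher there. Naive replicate 2, the array with the highest Siglech, was the highest naive array for 17 of the 29 tested interferon-stimulated genes (58.6%, beside 36.9% of all genes). Naive replicate 1 was highest for 4 and replicate 3 for 8. Ddx58 (8.44) and Bst2 (7.67) were highest on replicate 2, while Isg20 was lowest there (5.98) and Irgm1 was highest on replicate 3 (7.50). Of 6 tested macrophage and dendritic cell markers, 2 were lower in IgE GC and none higher, beside 7.4% of all genes lower. The list median was -0.105. In GFP+ and GFP- IgG1 GC, 2 and 3 were lower and none higher, beside 6.43% and 9.35% of all genes lower. The list medians there were -0.382 and -0.438. The mean of all 13 of these markers was 4.98 to 5.28 on the naive arrays and 4.60 to 4.93 in the 3 GC groups. Neither of 2 tested natural killer markers was called in any of the 3 GC groups. The mean of 6 natural killer markers was 4.40 to 4.85 on the naive arrays and 3.87 to 4.10 in those groups. The macrophage and dendritic cell markers lower in IgE GC were Fcer1g (-1.65) and Tyrobp, an adaptor gene of myeloid and natural killer cells (5.95, 5.68 and 5.34 in IgE GC, against 8.24, 8.75 and 8.30 in naive cells). The part of such cells in the naive values was not tested. Psmb8, Psmb9 and Ddx58 kept their calls in all 3 GC comparisons when any 1 array was left out, naive replicate 2 among them.

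**Figure D3:**
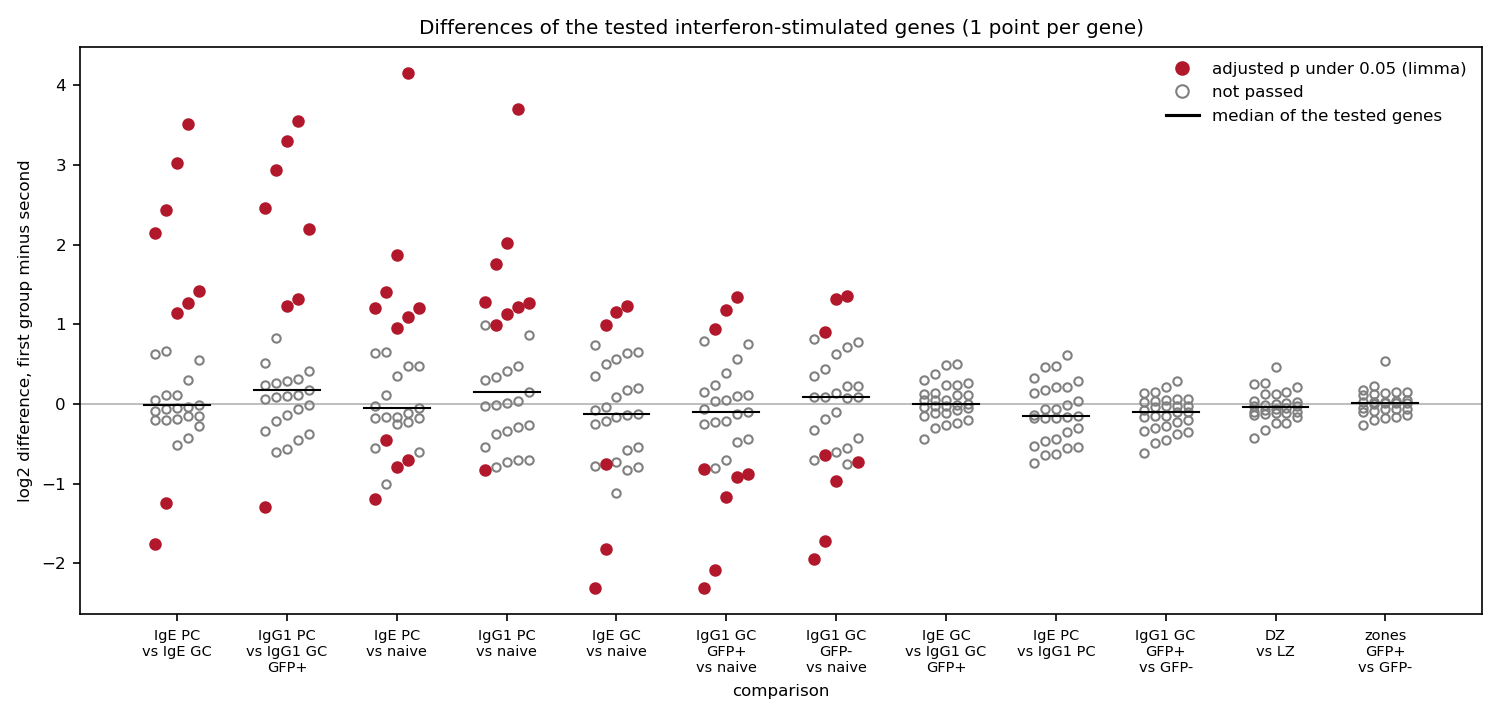
Log2 difference (vertical axis, first group minus second) of each tested interferon-stimulated gene in 12 comparisons (horizontal axis), with filled points for an adjusted p under 0.05 and a line at the median of the list. Called genes reach 4.16 in plasma cells and -2.32 in GC cells against naive cells, the medians stay near 0, and the 5 comparisons on the right hold no called gene.

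No interferon-stimulated gene passed the test between the isotypes. Between IgE GC and GFP+ IgG1 GC 0 of 29 genes passed limma's test, none had an unadjusted p under 0.05, and 0% of all genes passed (264 at that unadjusted p). Differences ran from -0.436 to 0.498, with a median SE of 0.293. For Ddx58 the difference was 0.49 (95% interval -0.22 to 1.201) and for Irgm1 -0.23 (-1.24 to 0.77), so changes of the size seen in plasma cells lie outside these intervals, while smaller ones do not. Stat2 had 8.12, 7.96 and 8.04 in IgE GC and 7.79, 7.83 and 7.596 in GFP+ IgG1 GC, groups that did not overlap, yet the difference of 0.30 did not pass (adjusted p = 1).

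Between IgE PC and IgG1 PC, again 0 of 29 genes were called and none had an unadjusted p under 0.05, beside 0.959% of all genes. Differences ran from -0.743 for Irgm1 to 0.615 for Parp14. The 2 IgG1 PC arrays stood well apart for several genes, with 7.94 and 6.33 for Stat2, 7.57 and 6.03 for Parp14, 9.03 and 7.30 for Irgm1 and 5.39 and 3.83 for Mx2. Without IgG1 PC replicate 1, Stat2 (1.28, adjusted p = 0.00271) and Parp14 (1.39, adjusted p = 0.0479) were called as higher in IgE PC, so these values rest on 1 array. Isg20 differed by 0.46 (95% interval -0.15 to 1.07) and Ddx58 by 0.21 (-0.54 to 0.97). The difference between isotypes in the PC minus GC change passed the test for 0 of the 29 genes (smallest adjusted p = 0.799, no unadjusted p under 0.05, 0.0909% of all genes called).

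GFP status within IgG1 GC cells gave no call either. In unseparated cells 0 of 29 genes passed between GFP+ and GFP- (0 at an unadjusted p under 0.05, 0% of all genes, 265 of them at that unadjusted p), and differences ran from -0.612 to 0.293. In the zones 0 of 28 passed (0% of all genes, 519 of them at that unadjusted p), with 1 gene, Isg20, at an unadjusted p under 0.05 (0.54, adjusted p = 0.94). The dependence of the zone difference on GFP passed the test for 0 of 28 genes (0% of all genes, 543 of them at an unadjusted p under 0.05), and Usp18 alone had an unadjusted p under 0.05 (-0.89, adjusted p = 0.986).

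Between DZ and LZ cells 0 of 28 genes were called, beside 6.91% of all genes, and 3 had an unadjusted p under 0.05. Differences ran from -0.42 for Tap1 to 0.47 for Trim25. Tap1 had 8.70, 8.58 and 8.45 in DZ GFP+ and 8.84, 8.23 and 8.93 in DZ GFP- cells, against 8.77, 9.09 and 9.01 in LZ GFP+ and 9.02, 9.18 and 9.21 in LZ GFP- cells, and the zones overlapped. Its adjusted p of 0.069 became 0.0384 with centred arrays and 0.0224 with a further quantile normalization. Trim25 had 9.41, 8.88 and 8.48 in DZ GFP+ and 9.01, 8.39 and 8.69 in DZ GFP- cells, against 8.67, 8.37 and 8.08 in LZ GFP+ and 8.66, 8.42 and 7.85 in LZ GFP- cells (adjusted p = 0.175, or 0.0422 with a block for the number in the title). Gbp3 was the third of these genes (-0.32, adjusted p = 0.149). For the genes with the widest PC differences, the zones differed by 0.13 for Isg20 (95% interval -0.37 to 0.62), 0.26 for Ddx58 (-0.19 to 0.71) and -0.097 for Irgm1 (-0.69 to 0.50).

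The receptors and kinases upstream were counted too. Of 15 tested genes of interferon reception and signalling, 3 were higher and 5 lower in IgE PC than in IgE GC, and 2 were higher and 6 lower in IgG1 PC than in GFP+ IgG1 GC, beside 23.6% and 21.4% of all genes called. Ifnar2, a chain of the type I receptor, had 9.19, 8.84, 8.51 and 8.26 in IgE PC, against 6.001, 6.19 and 6.29 in IgE GC, and 9.22 and 9.09 in IgG1 PC, against 6.73, 6.57 and 6.26 in GFP+ IgG1 GC. The groups lay apart in both isotypes, with differences of 2.54 and 2.64 (adjusted p = 0.000224 and 0.000976, limma). Ifnar1, the other chain, differed by 0.96 and 1.27 (adjusted p = 0.0277 and 0.0173). Irf8, a factor of GC B cells that also binds the ISRE, was lower (-2.47 and -3.61), as were Jak1 (-1.49 and -1.39) and Jak2 (-1.39 and -1.98). Against naive cells GC cells had lower Ifnar2 (-1.96 in IgE, -1.60 in GFP+ IgG1 and -1.75 in GFP- IgG1 GC), although naive replicate 1, at 6.67, lay within the GC range. Plasma cells had none of the 15 higher and 6 lower than naive cells in each isotype, beside 14.1% (IgE) and 12.2% (IgG1) of all genes lower. DZ cells had 5 of the 15 lower than LZ cells and none higher, led by Ifngr2 (-0.85), a chain of the interferon gamma receptor, and Jak2 (-0.81), beside 6.91% of all genes called in either direction.

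Interferon-stimulated genes outside the 44 were counted as well. Of 31 tested, 6 were higher and 5 lower in IgE PC than in IgE GC, and 7 and 2 in the IgG1 comparison, beside 23.6% and 21.4% of all genes called. Pml, the organiser of nuclear bodies, had 9.54, 9.72, 9.82 and 9.68 in IgE PC, against 5.99, 6.23 and 6.73 in IgE GC, and 9.31 and 8.55 in IgG1 PC, against 5.87, 6.43 and 5.71 in GFP+ IgG1 GC (3.37 and 2.93, adjusted p = 3.7e-07 and 1.62e-05). Against naive cells 1 was higher and 11 were lower in IgE GC, 1 and 11 in GFP+ IgG1 GC, and 0 and 9 in GFP- IgG1 GC, where 7.4%, 6.43% and 9.35% of all genes were lower. Ifi203, a gene of the DNA-binding HIN-200 family, led with -3.66, -4.08 and -3.52, and Pml had -1.94, -2.26 and -2.05. Of 11 tested receptors and adaptors of nucleic acid sensing, 3 were higher and 1 lower in IgE PC than in IgE GC. In the IgG1 comparison 2 were higher and 2 lower, beside the same 23.6% and 21.4% of all genes. Tlr9, the endosomal DNA receptor, was among the lower ones (-3.20 in IgE and -2.93 in IgG1 cells). Against naive cells 1 was higher and 4 were lower in IgE GC, 0 and 3 in GFP+ IgG1 GC, and 0 and 2 in GFP- IgG1 GC. The shares of all genes lower were again 7.4%, 6.43% and 9.35%. Tlr7, the RNA receptor, was lower in all 3 GC groups (-2.36, -2.48 and -2.73). The interferon genes themselves were dim, 4 of the 9 matched being tested, and none was called between PC and GC. Against naive cells none of the 4 was higher. Lower were 1 in IgE GC, 0 in GFP+ IgG1 GC, 2 in GFP- IgG1 GC, 2 in IgE PC and 1 in IgG1 PC. Of all genes, 7.4%, 6.43%, 9.35%, 14.1% and 12.2% were lower in these comparisons.

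Over all 14 comparisons, 18 genes were called at least once, and 11 were tested and never called. Among the GC arrays, the mean of the 40 genes also followed the replicate number in the titles. In the second experiment it was 6.05 to 6.14 on the 4 arrays numbered 3, against 6.34 to 6.39 on those numbered 1 and 6.33 to 6.44 on those numbered 2, with no overlap. Of 28 tested genes, 22 (78.6%) had their lowest mean on the arrays numbered 3, beside 34.1% of all genes tested. In the first experiment, the GC arrays numbered 3 had 5.93 to 6.05, against 6.17 to 6.32 for number 1 and 6.12 to 6.17 for number 2, and 22 of 29 genes (75.9%) had their lowest mean there, beside 39.8% of all genes. The naive arrays did not follow this order, and arrays 1 to 3 had 6.144, 6.382 and 6.257. IgE PC arrays 1 to 4 had 6.458, 6.435, 6.433 and 6.386, a narrow fall with number 4 lowest. IgG1 PC had 6.78 and 6.315 on arrays 1 and 2 and no array numbered 3. The sources used here do not say what a number stands for beyond a separate sort.

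**Figure D4:**
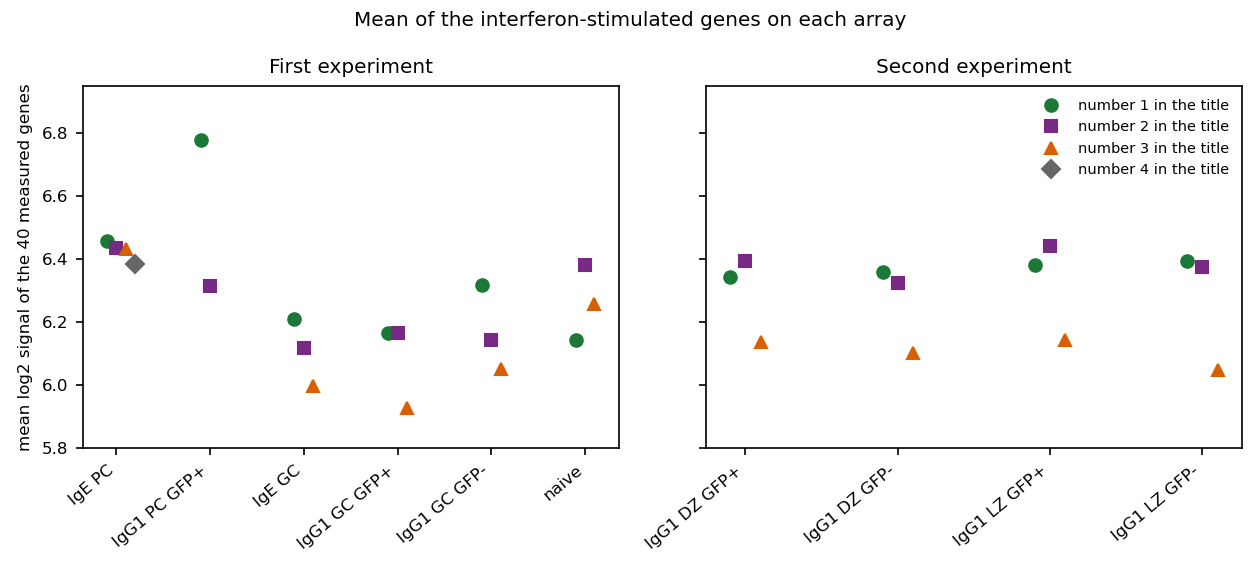
Mean log2 signal of the 40 measured interferon-stimulated genes (vertical axis) on each array, by group (horizontal axis) and by the replicate number in the title (marker). In the second experiment the 4 arrays numbered 3 lie at 6.05 to 6.14, below the other 8, and among the GC arrays of the first experiment those numbered 3 are lowest in each group.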

How the data were processed

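Total RNA (2 ng) of each sorted pool was amplified to cDNA, of which 5 ug was hybridised to a mouse gene array, per the labels' protocols. As the submitters' processing notes have it, the authors made the deposited log2 values by RMA with R 2.15.2. No source used here says whether both experiments were normalized together, and each was tested by itself. Of 34760 probe sets, 21640 had 1 gene symbol, 1321 several and 11799 none. Each gene was read from its single-symbol probe set with the highest mean over all 30 arrays. The brightness of a probe set depends on its sequence, so levels of different genes were not compared, and precision is limited by the 2 to 4 arrays per group.

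Every p in the text without another name is from limma 3.58.1 in R 4.3.3 (lmFit and eBayes), fitted across all genes with all arrays of an experiment in 1 fit, and adjusted by Benjamini-Hochberg over the 12098 (first experiment) or 11051 (second experiment) genes above the array median on enough arrays. Calls are at an adjusted p under 0.05, two-sided. The fit was checked on simulated data. Alternatives were no filter, centring on array medians, a further quantile normalization, the compared groups alone, the mean of a gene's probe sets, the replicate number as a block, leaving out each array, and, chosen after seeing the data, leaving out naive replicate 1 with GFP+ IgG1 GC replicate 3. The main fit had no block for the numbers, and whether they pair the samples is not established. Between GFP+ and GFP- IgG1 GC, same-numbered arrays deviated together weakly (r = 0.154, 0.109 and 0.116). Called genes with the largest differences, up to 8 in each direction, were to be given on every array, and up to 4 genes of each other pathway list. The genes, pathway lists and marker lists were chosen with earlier results of these data known. Promoter windows were read from RefSeq (GRCm38.p6), python 3.11.15 and pandas 2.3.3 were used for counting, and matplotlib 3.10.9 for the plots.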

Additional observations from a re-analysis of the deposited data

Results flagged for a closer look

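Of the 40 genes in IgE PC, the only group with 4 arrays, 4 had 1 array whose gap to the nearest other array passed Dixon's critical value, where chance gives about 1 in 20. Trim25 had 9.67 on replicate 2, against 9.30 to 9.32 on the other 3 arrays. Irgm1 had 8.18 on replicate 3, against 7.15 to 7.20. Ifit1 had 4.84 on replicate 4, and Ifih1 had 4.24 on replicate 1, both below the array median. The calls of Irgm1 and Trim25 in IgE PC were kept under every alternative tried.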

How the results depend on the processing

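Of 60 calls of a gene in a comparison, 39 were kept under every alternative tried and 21 lost the call under at least 1. Over 774 recomputed values 85 lost the call and 0 changed sign. With arrays centred on their medians, 14 genes of the list were called in IgE GC against naive, and 1 in DZ against LZ. With a further quantile normalization the counts were 12 and 1. With the compared groups alone, 5 were called in GFP+ IgG1 GC against naive. Leaving out naive replicate 1 together with GFP+ IgG1 GC replicate 3, chosen after seeing the data, gave 10 in IgE GC against naive. The cause of these shifts was not tested. Leaving out 1 array gave 5 to 10 called genes in IgE GC against naive (10 without naive replicate 1), 4 to 10 in GFP+ IgG1 GC against naive (4 without naive replicate 3 and 10 without naive replicate 2), 3 to 10 in GFP- IgG1 GC against naive (3 without GFP- IgG1 GC replicate 2 and 10 without naive replicate 2) and 0 to 2 in IgE PC against IgG1 PC. It gave 8 to 9 in IgE PC against IgE GC, 7 to 9 in IgG1 PC against IgG1 GC, 10 to 13 in IgE PC and 8 to 10 in IgG1 PC against naive, and 0 in each of the other comparisons. With the replicate number as a block, 9 were called in IgE PC against IgE GC, 9 in IgG1 PC against IgG1 GC, 12 in IgE PC and 9 in IgG1 PC against naive, 8, 9 and 10 in IgE, GFP+ IgG1 and GFP- IgG1 GC against naive, 1 in DZ against LZ, and 0 in the rest. Outside the GFP+ and GFP- IgG1 GC pair, at least 1 correlation of same-numbered arrays in each comparison was 0.1 or lower. Pairing is not established for any comparison, that pair included. In the second experiment 17 of 18 same-numbered pairs correlated best with their own number (r from 0.002 to 0.199), a hint from the data and not from the design. Over all genes, a fit of the compared groups alone called 2037 in place of 3230 in IgE GC against naive, 1527 in place of 2813 in GFP+ IgG1 GC, 2061 in place of 3606 in GFP- IgG1 GC, 1670 in place of 3540 in IgG1 PC against naive, 0 in place of 116 in IgE PC against IgG1 PC, and 1 in place of 11 for the isotype difference in the PC minus GC change. Leaving out 1 array gave 76 to 253 and 2 to 37 in these last comparisons, and 480 to 813 in place of 764 in DZ against LZ. Low signal kept 11 of the 40 genes outside the main fit.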

Other observations

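Ifit3 had 4.99, 6.51 and 3.29 on the arrays of DZ GFP- cells and 4.94, 3.90 and 3.56 on those of DZ GFP+ cells, against 3.94, 3.78 and 3.55 in LZ GFP- and 4.17, 3.86 and 3.86 in LZ GFP+ cells. The value of 6.51 on 1 DZ GFP- array was the highest of Ifit3 in either experiment, and near-identical copies of the gene make its signal uncertain. Of 6 neutrophil and eosinophil markers 3 were tested, and 1 of them, the eosinophil granule gene Prg2, was higher in plasma cells than in GC cells, by 2.12 in IgE and 2.62 in IgG1 cells (adjusted p = 0.000317 and 0.000284, limma). The 1 tested basophil and mast cell marker of 5 was not called (-0.042 and -0.245). In IgE PC against IgE GC, 1 of 3 tested plasmacytoid dendritic cell markers and 1 of 6 macrophage and dendritic cell markers were higher. Neither of 2 natural killer markers was called there. In IgG1 PC against GFP+ IgG1 GC, 1 of the 2 natural killer markers was higher, and none of the other 2 lists was called. Of all genes, 10.2% and 8.32% were higher in these comparisons. The part of any of these markers in the plasma cell values of the interferon-stimulated genes was not tested.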
